A study of Homo sapiens with 6 samples.

Results

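The listed peaks of RNA polymerase I (Pol I) and RNA polymerase II (Pol II) over 2 long genes, TMEFF2 and PPFIA2, were examined in LNCaP, a human prostate cancer line that responds to androgen. The genes were chosen by the number of listed Pol II peaks, which was high both with and without the Pol I inhibitor BMH-21, so their peak density is given as a description. Each gene was read in hg19 with 20 kb added on both sides. That gave a window of 288 kb on chromosome 2 for TMEFF2 (gene from 192813 to 193061 kb) and one of 542 kb on chromosome 12 for PPFIA2 (gene from 81652 to 82154 kb). The windows held 239 of the 84817 listed peaks, 97 at TMEFF2 and 142 at PPFIA2.

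Cells had received DMSO, the solvent used as control, or 1 µM BMH-21 for 6 h, and chromatin was precipitated with the Pol I antibody C-1 or with the antibody 4H8 against Pol II whose C-terminal repeats carry phosphate on serine 5. Each of these 4 groups had 1 ChIP library with a peak list. The 2 inputs were not used here. With 1 library per group no difference has a replicate error, and no p-value is given. Read depth is unknown, since the lists hold peaks and no counts. Markers of the cell line were not checked, because no hg19 annotation was used. Each peak has a score of the authors, from 50 upward, whose scale may differ between libraries, so scores are used only within a list. Each peak also carries a running number. The Pol II lists skipped 48.05% (DMSO) and 77.0% (BMH-21) of their numbers and the Pol I lists 23.3% and 87.7%, for reasons that are not given, and a place without a listed peak is therefore not shown to lack the polymerase. For either antibody, no DMSO peak overlaps a BMH-21 peak anywhere in the genome, so peaks of the 2 treatments can only lie beside each other.

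TMEFF2 encodes tomoregulin-2, a transmembrane protein with an EGF-like domain and follistatin-like domains that is made mainly in brain and prostate. PPFIA2 encodes liprin-alpha-2, a scaffold protein best known from the presynaptic active zone, where liprins bind receptor tyrosine phosphatases of the LAR family. Pol I transcribes the ribosomal RNA precursor in the nucleolus and is not known to transcribe protein-coding genes. Pol II gains phosphate on serine 5 around initiation, typically close to a gene start, and carries less of it further into a gene. BMH-21 intercalates into DNA and inhibits Pol I. Both genes lie on the minus strand, so distances below run from the start at the higher coordinate in the direction of transcription, to the centre of a peak unless its edge is named. The starts are given to the nearest kb.

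The bases before the annotated starts are shown because the 4 lists had no peak at the first start of either gene, and because PPFIA2 has internal starts. RefSeq, on build GRCh38.p14, gave 1 start for TMEFF2 and 3 for PPFIA2, all on the minus strand. The 250 bases upstream of each are printed from 5′ to 3′, with every CG dinucleotide in capitals, in the order TMEFF2 (chr2:192194934-192195183) and the first (chr12:81759351-81759600), near internal (chr12:81598372-81598621) and far internal (chr12:81369370-81369619) start of PPFIA2.
TMEFF2 start: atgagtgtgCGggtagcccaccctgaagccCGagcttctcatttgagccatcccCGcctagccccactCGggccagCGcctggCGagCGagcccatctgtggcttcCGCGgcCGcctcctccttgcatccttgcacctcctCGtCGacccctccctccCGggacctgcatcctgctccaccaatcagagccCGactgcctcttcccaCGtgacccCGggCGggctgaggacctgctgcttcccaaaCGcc
PPFIA2 first start: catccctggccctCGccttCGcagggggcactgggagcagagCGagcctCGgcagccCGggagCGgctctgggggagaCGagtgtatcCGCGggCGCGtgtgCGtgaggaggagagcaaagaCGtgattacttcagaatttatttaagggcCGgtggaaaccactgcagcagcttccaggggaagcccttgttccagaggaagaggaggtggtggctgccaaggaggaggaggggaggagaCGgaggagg
PPFIA2 near internal start: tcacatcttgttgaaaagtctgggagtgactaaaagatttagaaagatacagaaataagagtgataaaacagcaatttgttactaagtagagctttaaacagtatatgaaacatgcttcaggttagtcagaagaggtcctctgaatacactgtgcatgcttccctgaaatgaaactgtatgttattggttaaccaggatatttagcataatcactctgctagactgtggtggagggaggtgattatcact
PPFIA2 far internal start: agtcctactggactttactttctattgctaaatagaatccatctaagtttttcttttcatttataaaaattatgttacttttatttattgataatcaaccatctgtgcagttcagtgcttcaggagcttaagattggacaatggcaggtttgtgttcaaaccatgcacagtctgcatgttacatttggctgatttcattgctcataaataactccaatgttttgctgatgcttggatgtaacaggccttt

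The capitals separate the first starts from the internal ones. The stretch before TMEFF2 held 18 CG dinucleotides and had a GC content of 67.6%, and that before the first start of PPFIA2 held 15, at a GC content of 63.6%. Before the near and far internal starts of PPFIA2 there were 0 CG dinucleotides, at GC contents of 36.8% and 34.4%. Over 35116 RefSeq promoters the median was 11 CG dinucleotides and a GC content of 58%, and 36.8% of promoters held at least as many as TMEFF2. Both strands were searched for 2 motifs that do not overlap each other. The E-box CACGTG, held by 6.35% of all promoters over the same 250 bases, was present at TMEFF2 and not at the starts of PPFIA2. The TATA box motif TATAAA, held by 10.7%, was present at the far internal start of PPFIA2 and at none of the other starts shown. A match is a description of the letters and does not show a bound factor.

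At TMEFF2 the Pol II lists held 33 DMSO peaks and 60 BMH-21 peaks, a BMH-21 to DMSO ratio of 1.82. Over the whole lists that ratio was 0.401. Counting every running number from the first to the last listed peak of the window, skipped ones included, gave 53 numbers in DMSO and 82 after BMH-21, a ratio of 1.55 against 0.906 for the highest numbers of the lists. Both counts were higher at TMEFF2 after BMH-21, whereas both were lower over the lists as a whole. The genes were chosen for high counts in both lists, and the BMH-21 list is the shorter. This contrast therefore describes the chosen genes and shows nothing further. Among peaks of at least 300 bp the order at TMEFF2 was reversed, with 31 in DMSO and 24 after BMH-21. That cut lies above the median width of the whole BMH-21 list (269 bp) and below that of the DMSO list (498 bp). It therefore removes a larger share of the BMH-21 list as a whole. PPFIA2 had 48 DMSO and 58 BMH-21 Pol II peaks, a ratio of 1.21, and 82 against 159 running numbers, a ratio of 1.94. The length under Pol II peaks was 1.23 times (TMEFF2) and 1.24 times (PPFIA2) that of DMSO, against 0.296 times over the lists. With 1 library each, whether these ratios exceed the spread between replicates was not measurable.

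**Figure D1:**
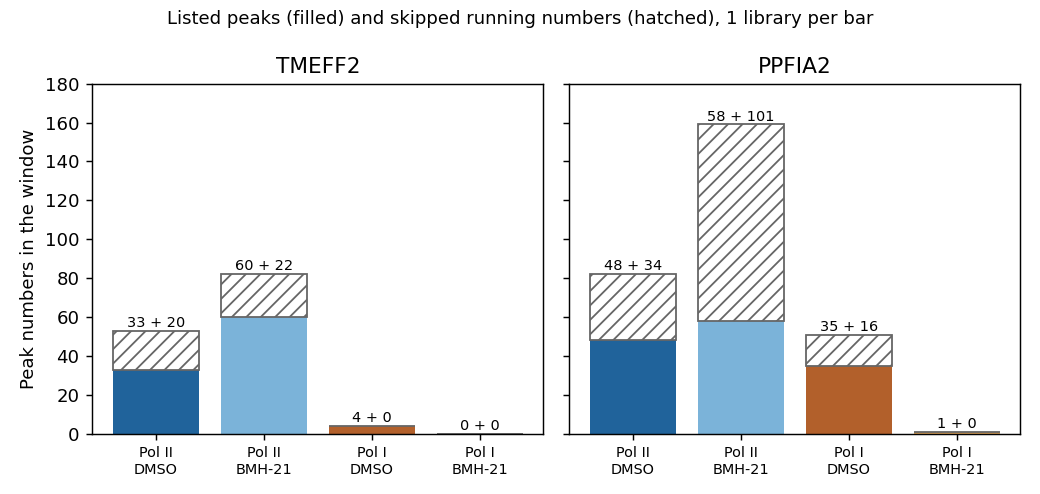
Running peak numbers in the TMEFF2 and PPFIA2 windows for each of the 4 libraries, split into listed peaks (filled) and numbers skipped between the first and last listed peak (hatched). Pol II reached 82 numbers after BMH-21 against 53 in DMSO at TMEFF2, and 159 against 82 at PPFIA2, of which 101 were skipped, while Pol I had 0 and 1 listed peaks after BMH-21.

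The TMEFF2 peaks stood in a stretch of chromosome 2 where the next listed Pol II peaks were far away. Over the chromosome the lists held 0.745 (DMSO) and 0.307 (BMH-21) Pol II peaks per 100 kb, so wide spacing is not particular to this place. The nearest DMSO Pol II peaks outside the window lay 252.3 kb from its upstream edge (score 56.63) and 237.0 kb past its other edge (score 111.82). The nearest BMH-21 Pol II peaks outside lay 191.3 kb upstream (score 79.19) and 964.2 kb past the end (score 54.63). Just inside, the outermost peaks past the gene's end were at 252.1 kb from the start in DMSO (score 87.21) and at 252.9 kb after BMH-21 (score 57.97). The listed peaks of both Pol II lists thus began and ended with the gene to within a few kb. Skipped numbers beyond the window were not counted. At PPFIA2 the nearest DMSO Pol II peak outside was 6.7 kb from the upstream edge (score 54.66), and on the other side 301.1 kb away (score 245.46). For BMH-21 Pol II these distances were 1289.5 kb and 214.5 kb.

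Upstream of either start the Pol II lists held 0 peaks within the 20 kb flank. At TMEFF2 the first DMSO peak began 4.8 kb into the gene, on chromosome 2 at 193055700 to 193056230, with a width of 531 bp and a score of 55.68. The first BMH-21 peak began 3.8 kb in, at 193056860 to 193057213, with a width of 354 bp and a score of 64.36. As the window was 2.1 kb longer than TMEFF2 on GRCh38 (245.9 kb), these distances may be off by that much. At PPFIA2 the peaks nearest the start were far further in, at 70.7 kb for DMSO Pol II (82082605 to 82083268, 664 bp, score 81.33) and 78.8 kb for BMH-21 Pol II (82074693 to 82075185, 493 bp, score 60.57). Neither Pol II list therefore had a peak at the first start, whose upstream bases are printed above. The lists give no position for skipped numbers.

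Along TMEFF2 the peaks of both treatments were spread over the whole gene and lay between each other. Per 50 kb from the start, DMSO Pol II had 10, 4, 7 and 5 peaks up to 200 kb, and 7 in the rest of the window. BMH-21 Pol II had 19, 12, 14 and 7, and 8 in the rest. The first 50 kb held the most peaks in both lists. In the 124 kb nearer the start lay 18 DMSO and 38 BMH-21 peaks, and in the 124 kb further away 14 and 21. Of 92 pairs of neighbouring Pol II peaks, 44 (47.8%) joined a DMSO and a BMH-21 peak. That share depends on how many peaks each list has here, which chose the gene, so it describes the order and shows nothing further. The longest sequence of peaks from a single list was 4 for DMSO and 7 for BMH-21.

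**Figure D2:**
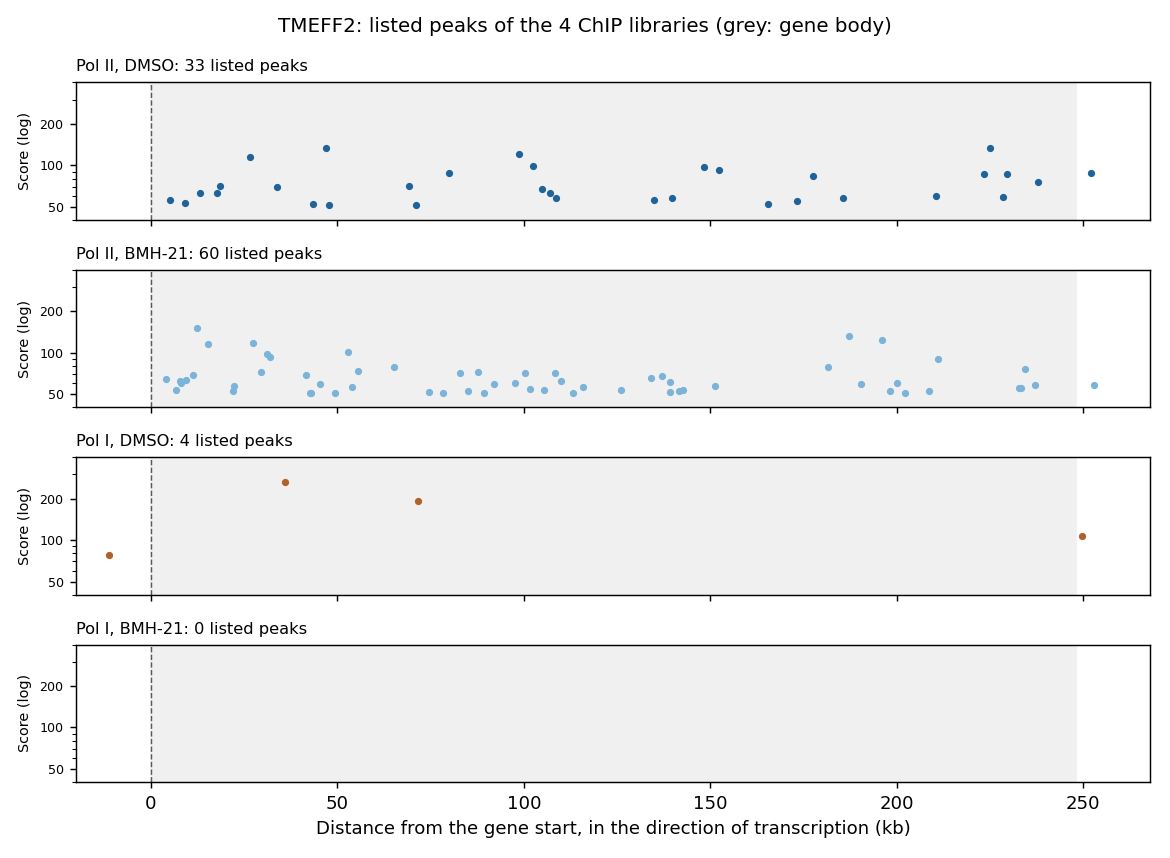
Listed peaks over TMEFF2 by distance from the gene start (kb, dashed line) and score (log axis), 1 panel per library, with the gene body in grey and a point at each peak's centre. Pol II peaks run through the gene in both treatments, 33 in DMSO and 60 after BMH-21, with 0 upstream of the start, and Pol I has 4 peaks in DMSO and 0 after BMH-21.

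The DMSO Pol II peaks of TMEFF2 were narrower and lower in score than their list, while the BMH-21 ones were close to theirs. DMSO Pol II peaks were 266 to 906 bp wide with a median of 380 bp, below the 498 bp of their whole list. BMH-21 Pol II peaks were 185 to 665 bp wide with a median of 284 bp, against 269 bp for their list. A score under 100 was held by 29 of the 33 DMSO peaks (87.9%, against 64.7% of their list) and by 54 of the 60 BMH-21 peaks (90%, against 86.5% of theirs). The median score was 67.0 in DMSO, where the list had 81.0, and 59.8 after BMH-21, where the list had 60.4. The leading DMSO peak lay 225.1 kb from the start (192835601 to 192836208, score 134.08), and a peak at 46.9 kb had nearly the same score, 133.58. The widest DMSO peak, 906 bp, lay at 26.5 kb with a score of 114.72. After BMH-21 the highest score, 151.56, and the largest width, 665 bp, belonged to a peak 12.4 kb from the start (193048275 to 193048939). It ranked 811 of 11540 in its list, and the leading DMSO peak 6168 of 28798.

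Spacing between treatments was close at TMEFF2. Of its 60 BMH-21 peaks, 20 had a DMSO Pol II peak no further than 1 kb away (33.3%, exact Clopper-Pearson 95% interval 21.7 to 46.7), against 19.2% of the whole BMH-21 list. The median gap from a BMH-21 peak to the nearest DMSO peak was 1.53 kb, and 9.73 kb over the list. In bins of 10 kb, 19 of 30 at TMEFF2 held a DMSO Pol II peak (background 6.68% of 300875 bins), 22 of 30 a BMH-21 Pol II peak (background 2.91%) and 16 of 30 both (background 1.13%). As density chose the gene, these shares describe it and show nothing further. Only 3 bins held DMSO peaks without BMH-21 peaks, 6 the reverse, and 5 neither. Intervals here and below cover counting error over peaks or bins, which are not independent.

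Dense runs, meaning 10 or more peaks of a list with no gap over 10 kb, overlapped between the treatments at TMEFF2. The DMSO run reached from 4.8 to 48.0 kb, with 10 peaks over 43.2 kb and 11.7% of its length under peaks. The BMH-21 run reached from 3.8 to 151.5 kb, with 46 peaks over 147.8 kb, 9.32% of its length under peaks and 16 skipped numbers. It ranked 14 by peaks among the 54 BMH-21 Pol II runs but 49 by the share of length under peaks. The DMSO run, at the minimum of 10 peaks, ranked 211 of 260 by peaks. With gaps up to 5 kb there was 0 of either run at TMEFF2, so the runs rest on the wider gap.

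Places where a BMH-21 Pol II run touched a DMSO Pol II run numbered 5. Among them TMEFF2 had the most BMH-21 peaks in the run but the fewest DMSO peaks, 10. The others lay on chromosome 2 at 181417613 to 181549798 and 189340344 to 189429513, on chromosome 8 at 134245565 to 134298212 and on chromosome Y at 14822901 to 14933580. Their BMH-21 runs held 10, 17, 14 and 21 peaks, with top scores from 86.69 to 165.19, beside the 46 peaks and 151.56 of TMEFF2. Their DMSO runs held 41, 20, 11 and 41 peaks. PPFIA2 was not among these 5 places. All 5 were low in coverage, with 8.81% to 17.9% of the BMH-21 run under peaks. Places with as many peaks of both Pol II lists were also counted in tiles as long as the windows. Of 10467 tiles of 288 kb, 2 held at least as many of each as TMEFF2. Of 5566 tiles of 542 kb, 1 did so for PPFIA2. Of these tiles 0 overlapped the window of the gene in question, so high counts in both lists are not particular to these genes.

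Pol I was sparse at TMEFF2. The DMSO list had 4 peaks, with 0 skipped numbers between them. They lay 11.2 kb upstream of the start (193071979 to 193072466, score 78.21), at 36.0 kb (193024617 to 193025308, score 261.89), at 71.6 kb (192989133 to 192989688, score 190.49) and at 249.7 kb, past the gene's end (192811147 to 192811524, score 107.02). They fell in 4 of 30 bins, near the background of 12.6%. None of the 4 was overlapped by a Pol II peak of either treatment, where over the whole list 14.0% were overlapped by a DMSO Pol II peak. After BMH-21 the Pol I list held 0 peaks in the window, and its nearest one lay 1692.4 kb from the upstream edge. That list had a peak in 0.547% of all bins and 0.0454 times as many peaks as the DMSO list, so a window with none is not particular to TMEFF2.

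**Figure D3:**
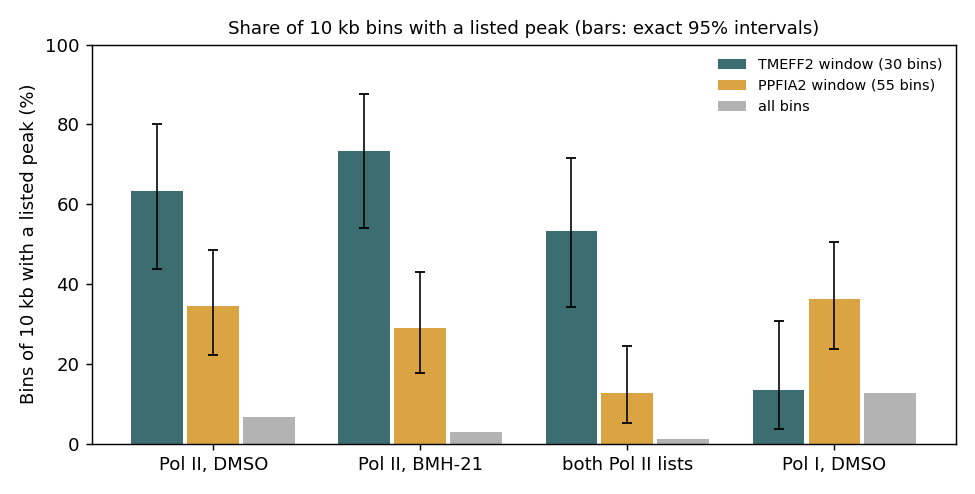
Share of 10 kb bins with a listed peak in the TMEFF2 window (30 bins), in the PPFIA2 window (55 bins) and over all bins, with exact 95% intervals that cover counting error only. TMEFF2 had 53.3% of its bins with peaks of both Pol II lists and PPFIA2 12.7%, while DMSO Pol I peaks filled 13.3% of bins at TMEFF2 and 36.4% at PPFIA2. Bins are not independent. The genes were chosen by their Pol II peaks, so the Pol II shares describe them and show nothing further.

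At PPFIA2 the peaks of each list were concentrated in particular stretches of the gene, some of which were shared. From the start, the stretch up to the first Pol II peak at 70.7 kb had 2 peaks in all, both of DMSO Pol I, at 22.2 and 68.1 kb. Then came 10 DMSO Pol II peaks from 70.7 to 153.6 kb, 16 DMSO Pol I peaks from 157.9 to 208.1 kb and 44 BMH-21 Pol II peaks from 211.2 to 264.8 kb, with 4 DMSO Pol I peaks among them. Next came 12 DMSO Pol I peaks from 311.3 to 385.3 kb and 36 DMSO Pol II peaks from 388.9 to 508.8 kb, with 13 BMH-21 Pol II peaks between 397.2 and 497.1 kb. DMSO Pol II peaks at 315.6 and 306.8 kb belonged to neither DMSO Pol II block. Borders of these blocks were drawn after the values were seen. The middle of the gene thus held 44 of its 58 BMH-21 Pol II peaks. Of 105 pairs of neighbouring Pol II peaks, 24 (22.9%) changed list, and the longest sequence from a single list was 44 peaks for BMH-21 against 6 for DMSO.

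**Figure D4:**
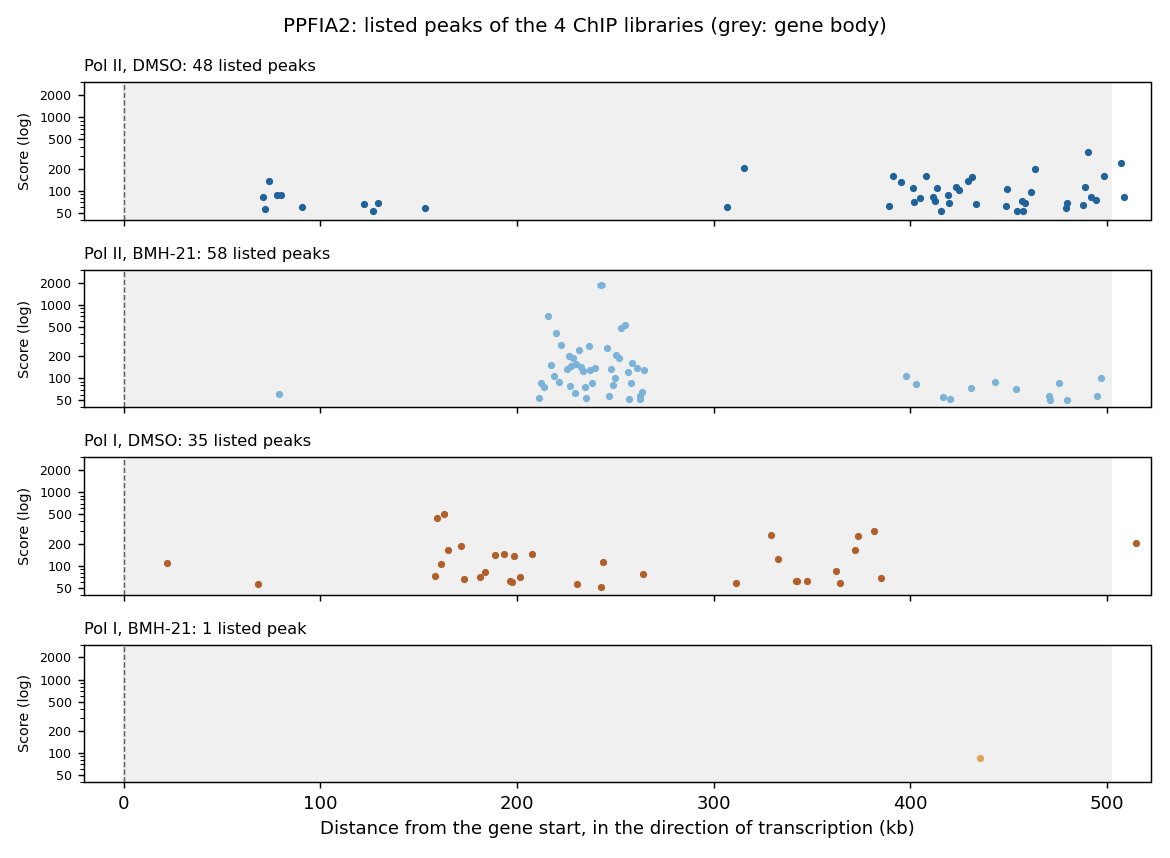
Listed peaks over PPFIA2 by distance from the gene start (kb, dashed line) and score (log axis), 1 panel per library, with the gene body in grey and a point at each peak's centre. BMH-21 Pol II peaks crowd between 211.2 and 264.8 kb, with a top score of 1871.46, where the DMSO Pol II list has 0 peaks, and DMSO Pol I has 4 peaks inside that block and more on both sides of it.

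The middle block of BMH-21 Pol II had the largest share of its length under peaks among these blocks. Its 44 peaks spanned 53.6 kb (81889224 to 81942795), 70.1% of which was under peaks, and the numbering skipped 0 numbers there. The leading peak (81909435 to 81913373) lay 242.6 kb from the start, was 3939 bp wide and scored 1871.46, which ranked 49 of 11540. Next came peaks at 216.0 kb (81936974 to 81939047, 2074 bp, score 708.54), 254.7 kb (2122 bp, 524.49), 252.9 kb (1327 bp, 478.95) and 220.0 kb (1724 bp, 407.54). The median width in the block was 704 bp and the median score 131, against 269 bp and 60.4 over the list. DMSO Pol II had 0 listed peaks in it. Among the 54 BMH-21 Pol II runs it ranked 15 by peaks, 17 by top score and 17 by the share of length under peaks.

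BMH-21 Pol II differed in form outside that block. Near the far end of the gene, 13 BMH-21 peaks were scattered between 397.2 and 497.1 kb, with 5.15% of that stretch under peaks. Their median width was 332 bp, and the highest score was 106.22. Between them 14 numbers were skipped and 30 DMSO Pol II peaks were listed. Of the 14 BMH-21 peaks outside the middle block, 8 had a DMSO Pol II peak no further than 1 kb away, and of the 44 in it 0 (19.2% over the list). The block was drawn after the values were seen, and DMSO Pol II has no listed peak in it. As density chose the gene, these shares describe it and show nothing further. The single other BMH-21 peak, at 79.1 kb, stood between DMSO peaks at 80.1 and 78.0 kb.

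Skipped numbers bear most on the PPFIA2 counts. Of 159 BMH-21 Pol II numbers, 101 were skipped, and 87 of these fell in the long gaps on both sides of the middle block. Between 397.2 and 264.8 kb the numbering advanced by 64 without a listed peak, and between 211.2 and 79.3 kb by 23. What these numbers stood for is not given, so the gaps are not shown to lack BMH-21 Pol II peaks. The DMSO Pol II list skipped 34 of 82 numbers, with 11 between 306.5 and 153.6 kb, the gap that holds the middle block, and 4 between 388.9 and 316.1 kb. TMEFF2 had no such gap, as its 22 skipped BMH-21 numbers fell in 15 stretches with at most 4 in any, and its 20 skipped DMSO numbers in 13 stretches with at most 4.

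DMSO Pol II at PPFIA2 was concentrated at the far end of the gene. The 36 peaks from 388.9 to 508.8 kb held 22.6% of that stretch. Of these, 28 lay in runs, 18 from 388.9 to 433.7 kb and 10 from 478.6 to 508.8 kb, where the run passes the gene's end. The rest lay between the 2 runs and belonged to neither. The leading peak (81662751 to 81664715, 1965 bp, score 337.61) lay 490.3 kb from the start and ranked 896 of 28798. A peak past the gene's end, at 507.2 kb (81646116 to 81647417), scored 239.38. Away from the far end, a peak at 315.6 kb scored 206.77 and its neighbour at 306.8 kb scored 60.4. Widths were 378 to 1965 bp with a median of 628 bp, above the 380 bp at TMEFF2. In bins of 10 kb, 19 of 55 held a DMSO Pol II peak, 16 of 55 a BMH-21 Pol II peak and 7 of 55 both, against the backgrounds given for TMEFF2.

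Pol I peaks of the DMSO list were more frequent at PPFIA2 than at TMEFF2, with 35 peaks in 20 of 55 bins. They were 336 to 2506 bp wide with a median of 642 bp, against 464 bp over the list. The block from 157.9 to 208.1 kb held 16 peaks and had 26.6% of its length under them, and none of the 11 runs in the DMSO Pol I list had more peaks. Its leading peaks lay together at the end nearest the start, at 163.0 kb (81989768 to 81992273, 2506 bp, score 499.34) and 159.4 kb (81994046 to 81995082, 1037 bp, score 451.63). They ranked 442 and 678 of 42547. The far block, from 311.3 to 385.3 kb, had 12 peaks with 12.4% of its length under them, led by a peak at 381.7 kb (81771421 to 81773152, 1732 bp, score 291.91). The last Pol I peak of the window, at 514.5 kb, scored 203.66.

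Overlap between listed Pol I and Pol II peaks at PPFIA2 was counted for each pair of lists. A DMSO Pol II peak overlapped 0 of the 35 DMSO Pol I peaks (14.0% over the list), and no listed Pol II peak of DMSO lay in the Pol I block from 157.9 to 208.1 kb. Overlap with a BMH-21 Pol II peak, which 2.43% of the whole list had, was found for 4 of the 35, at 264.3, 243.5, 242.6 and 230.6 kb. All 4 lay in the middle block, and the peaks at 243.5 and 242.6 kb were both under the leading BMH-21 Pol II peak. BMH-21 Pol II peaks covered 70.1% of that block and their number chose the gene, so this share describes it and shows nothing further. After BMH-21, Pol I had a single listed peak at PPFIA2, at 435.4 kb (81718474 to 81718822), 349 bp wide with a score of 84.30. It took 1 of 55 bins (background again 0.547%) and overlapped no listed Pol II peak, where 9.52% of its list overlapped a BMH-21 one. Skipped numbers could not be counted in any of these overlaps.

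Distances to the internal starts of PPFIA2 are given beside the blocks, each in its own build. On GRCh38 the near and far internal RefSeq starts, both without a CG dinucleotide upstream, lay 161.0 and 390.0 kb downstream of the first. On hg19 the leading DMSO Pol I peaks lay at 163.0 and 159.4 kb from the start of the window's gene. The far DMSO Pol II block began at 388.9 kb, where a peak of 1856 bp with a score of 157.25 lay at 391.2 kb (81761823 to 81763678). PPFIA2 spans 501.4 kb on GRCh38 and 502 kb in the hg19 window, but positions were not converted, and whether the starts lie under these peaks was not tested. The middle BMH-21 block had no RefSeq start of PPFIA2 at a like distance. RefSeq lists PPFIA2-AS1, PPFIA2-AS2, LOC105369872 and ACSS3 as overlapping PPFIA2, and CAVIN2-AS1 as overlapping TMEFF2. ChIP peaks carry no strand, so peaks of these genes and of PPFIA2 or TMEFF2 cannot be told apart.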

How the data were processed

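The samples were LNCaP ChIP libraries for Pol I and Pol II after DMSO or BMH-21, grouped by title, with 1 library per group. The authors deposited 4 peak lists, which give each peak's position, running number and score. The score column is named as a p-value per the file headers, but its values start at 50, on a scale no source states. The submitters' processing notes name hg19, deepTools 3.5.4, Bowtie2 2.2.1 and CASAVA 1.8.2. Peak names begin with MACS. Settings of the caller, use of inputs and selection of listed peaks: not given in the sources used here. Calls per library depend on its depth and enrichment, which could not be adjusted for.

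Peaks touching a gene with 20 kb on both sides were taken, starts were shifted to the first base, and numbers absent between listed peaks were counted as skipped. Overlap meant 1 bp or more. Bins of 10 kb ran from the first to the last listed peak of each chromosome. Shares have exact Clopper-Pearson 95% intervals. Run finding, coverage, bins and overlap were tested on simulated peaks. The genes, lists and settings were chosen with earlier results of these data known. Text names, per gene and list, the peaks nearest the start, first, last, highest scored and widest, the runs, and all peaks of a list with 5 or fewer; any others were picked once values were known. Related genes and cell markers planned for an hg19 annotation were not used here. Python 3.11.15, NumPy 2.4.6, pandas 2.3.3, SciPy 1.17.1 and matplotlib 3.10.9 were used. Alternatives changed the flank, score, width, bin, gap and run size.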

Additional observations from a re-analysis of the deposited data

How the results depend on the processing

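Alternative settings gave 76 values for 18 results. A factor of 1.5 (for shares of bins, the 95% interval) contained 54 of them and was passed by 22. Keeping scores at or above the median of the same list left 12 DMSO and 27 BMH-21 Pol II peaks at TMEFF2 (2.41% and 3.35% of the length, 13.3% of bins with both lists), and 25 DMSO Pol II peaks (4.24% of the length) and 17 DMSO Pol I peaks at PPFIA2. With peaks of at least 300 bp, TMEFF2 kept 24 BMH-21 Pol II peaks (3.19% of the length) and 31 DMSO ones. Its order was thus reversed, under a cut above the median width of the whole BMH-21 list (269 bp) but not of the DMSO list (498 bp). At PPFIA2 50 and 48 remained. Without flanks TMEFF2 had 2 DMSO Pol I peaks. Shares of bins with both lists at TMEFF2 were 32.2% in 5 kb and 75% in 20 kb bins, and 25% at PPFIA2 in 20 kb bins. Gaps up to 5 kb left 0 DMSO and 0 BMH-21 peaks in runs at TMEFF2 and 18 DMSO peaks in runs at PPFIA2, and runs of at least 20 peaks 0 DMSO peaks at either gene. Running numbers in place of listed peaks, chosen after the data were seen, gave 53 (TMEFF2) and 82 (PPFIA2) for DMSO Pol II and 159 for BMH-21 Pol II at PPFIA2. Causes of these changes were not tested. No paired analysis was possible because each group has 1 library. The unknown depth and the skipped numbers limit every count.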
